A study of Mus musculus with 40 samples.

Results

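The response of the heart to acute loss of Mdm2 was set against the response of the small intestine. For each gene, the change from Tg to FMTg mice in the small intestine was subtracted from the change from Tg to FMTg mice in the heart. A positive difference therefore marks a gene whose FMTg value was higher, relative to Tg, in the heart than in the small intestine. The libraries were taken by their labelled tissue and genotype, which gave 3 Tg and 5 FMTg libraries of each tissue, 16 of the 40 libraries of the series. They came from 10 mice, of which 6 gave both tissues (3 Tg and 3 FMTg).

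FMTg mice (genotype Mdm2FM/- Cag-CreERTg) lose Mdm2, and Tg mice (Mdm2+/- Cag-CreERTg) retain it. Every mouse was of strain C57BL/6j and 60 days old, and tissues were taken 24 hours after p53 was activated. The Tg mice are not wild type. Both groups carry 1 null allele of Mdm2 and the CreER transgene, an inducible recombinase under the Cag promoter, which is active in nearly all cell types. Loss of Mdm2 was therefore not directed to 1 cell type of either organ, and the agent that induced the recombinase is not given in the sources used here. Total RNA was extracted with Trizol from whole flash-frozen tissue. Replicates are separate mice.

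Mdm2 is a ubiquitin ligase that binds the transcription factor p53 and marks it for degradation, and the Mdm2 gene is itself a target of p53, which closes a feedback loop. Without Mdm2, p53 accumulates and drives genes for cell cycle arrest, apoptosis, DNA repair and its own regulation. Adult heart muscle cells rarely divide. The intestinal epithelium is renewed continuously from dividing crypt cells and is known as a tissue in which p53 readily induces apoptosis.

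Heart libraries held 15.3 to 29.0 M (1e6) reads in genes, and intestine libraries 14.4 to 23.3 M. Sarcomere genes took 5.37% to 11.4% of the reads of heart libraries, and enterocyte genes took 1.85% to 6.69% of those of intestine libraries, so the labelled tissues carried their defining markers. Some libraries stood apart. FMTg heart replicate 2 had 1.44% of its reads in fibroblast and collagen genes (0.178% to 0.353% in the other heart libraries) and 2.16% in erythroid genes. FMTg heart replicate 4 had 6.23% in hepatocyte genes and replicate 5 had 0.949%, against 0.00182% to 0.0161% in the other heart libraries. Tg intestine replicate 1 had 1.38% in sarcomere genes, and the other intestine libraries had at most 0.548%. Some heart libraries held reads of intestinal genes. Goblet cell genes took 0.0828%, 0.0685% and 0.0909% in Tg heart replicate 1 and FMTg heart replicates 1 and 2, and at most 0.0158% in the others. Paneth cell genes took 0.0178%, 0.0424% and 0.0560% in the same libraries and at most 0.00290% in the others. Enterocyte genes took 1.22% in FMTg heart replicate 4 and 0.0120% to 0.366% in the other heart libraries. Replicate 4 held only 0.000983% in goblet cell and 0.000698% in Paneth cell genes, and it was the library with 6.23% in hepatocyte genes. Its enterocyte share alone therefore does not mark it as rich in intestinal reads, and the source of these reads was not tested. FMTg replicates 4 and 5 of both tissues were the 4 libraries with reads of Y-linked genes (106 to 238 per 1e6 reads, against at most 0.246 in the others), and fewer genes had reads in them (15254 to 15710, against 16351 to 17111). In such whole-tissue RNA, fewer cells of a type and less RNA per cell cannot be told apart.

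**Figure D1:**
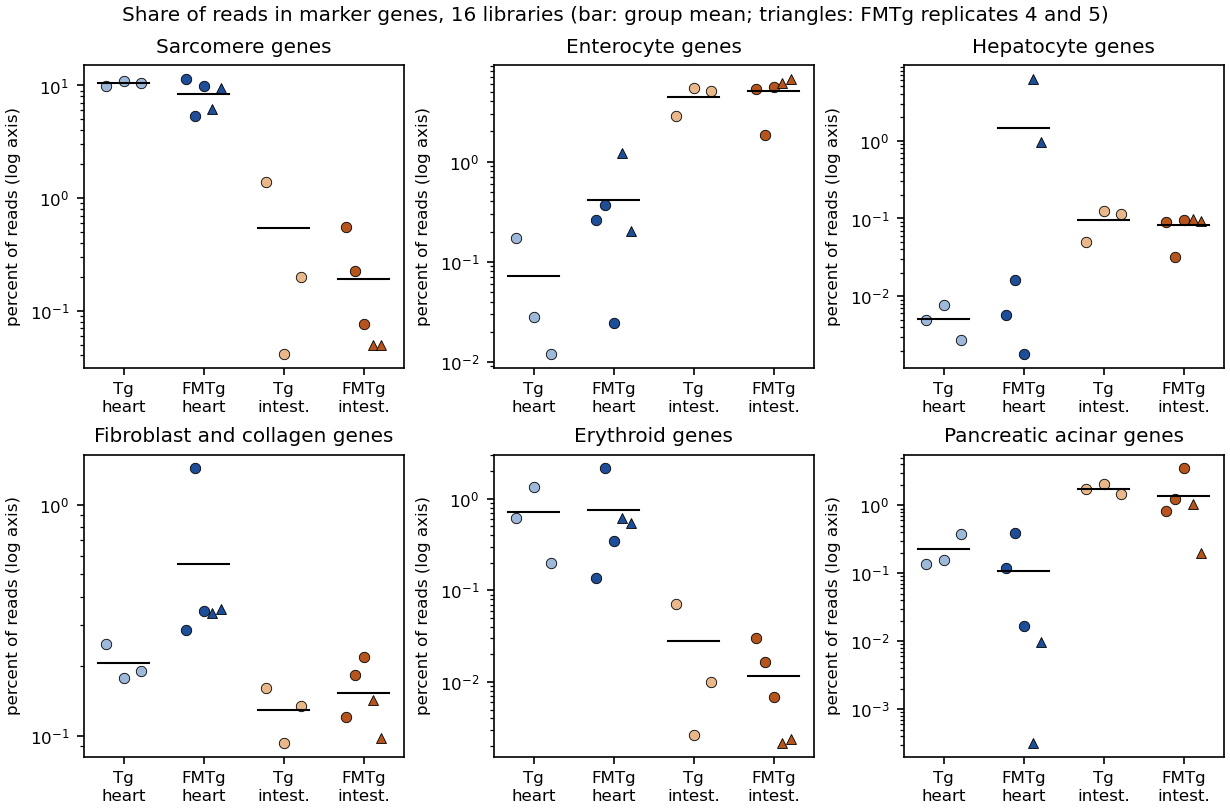
Percent of reads (log axis) in 6 sets of marker genes for each of the 16 libraries, with 1 point per library, a bar at the group mean and triangles for FMTg replicates 4 and 5. Sarcomere genes took most in heart and enterocyte genes most in small intestine libraries, FMTg heart replicate 4 reached 6.23% in hepatocyte genes and FMTg heart replicate 2 reached 1.44% in fibroblast and collagen genes.

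No gene passed the test for a difference between the response of the heart and that of the small intestine. Of 15363 genes tested with limma, 0 (0.0%) had an adjusted p below 0.05, and the smallest adjusted p was 1.00. Before adjustment 484 genes (3.15%) had a p below 0.05, 309 with the higher effect in the heart (2.01%) and 175 with the lower (1.14%). A voom fit of the whole reads also called 0 genes and had 400 at an unadjusted p below 0.05. The split by direction depended on the scale. When each library was shifted to the median of its tissue, 185 genes were higher and 310 lower in the heart, and the median difference of all genes moved by -0.10 log2 units. Without Tg heart replicate 3, Tg heart replicate 2 or Tg intestine replicate 3, the 484 genes became 261, 288 and 287. Without FMTg heart replicate 3, FMTg heart replicate 1 or FMTg intestine replicate 2, they became 697, 658 and 626. For the median gene the 95% interval of the difference reached 0.889 log2 units to either side. Every difference named below has an adjusted p of 1.00, and its limma p is given before adjustment.

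A test on the mean of both tissues called 28 genes, and such a call does not show a response in each tissue. On the mean of the heart and intestine effects, limma called 27 genes higher in FMTg mice (0.176% of those tested) and 1 lower (0.00651%) at an adjusted p below 0.05. Of the 27, 16 belong to 74 listed p53 targets, a list chosen with earlier results of these data known. The other 11 were Celf5, Col15a1, Rnf169, Commd3, Exoc4, Aaas, Mgmt, Thyn1, Msh6, Mybl1 and 1700007K13Rik, and the gene that fell was Pdk4. As the effect in 1 tissue, in the same fit of both tissues, the heart had 7 called genes, all higher (0.0456%): Eda2r, Gtse1, Aen, Ddias, Phlda3, Celf5 and Col15a1. The small intestine had 1, Eda2r (0.00651%).

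Of these 28 genes, 6 had a difference between the tissues at an unadjusted p below 0.05 (3.15% of all genes tested), and none of these differences passed the correction. They were Eda2r, Ddias, Celf5 and Col15a1 with the higher effect in the heart, and Plk2 and Pdk4 with the lower. The 28 were chosen by p in the same fit, with the same estimate of the spread, so the share is not an independent one. Among the 27 that rose, the effect was larger in the heart for 11 and in the small intestine for 16. The call of 6 genes was kept whichever of the 16 libraries was left out: Eda2r, Gtse1, Aen, Phlda3, Ddias and Polk. With the mouse as a random block, 13 of the 28 kept their call, namely these 6 and Aaas, Bax, Commd3, Ddit4l, Exoc4, Psrc1 and Rnf169. The number of called genes depended on single libraries. It fell to 6 without Tg intestine replicate 2, to 8, 9 and 11 without Tg heart replicates 2, 3 and 1, to 12 and 17 without Tg intestine replicates 3 and 1, to 15 and 16 without FMTg heart replicates 1 and 3, and to 18, 15, 18 and 12 without FMTg intestine replicates 2, 3, 4 and 5. The heart count was 4 without Tg heart replicate 3, FMTg heart replicate 4, FMTg heart replicate 5, Tg intestine replicate 3, FMTg intestine replicate 2 or FMTg intestine replicate 5.

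**Figure D2:**
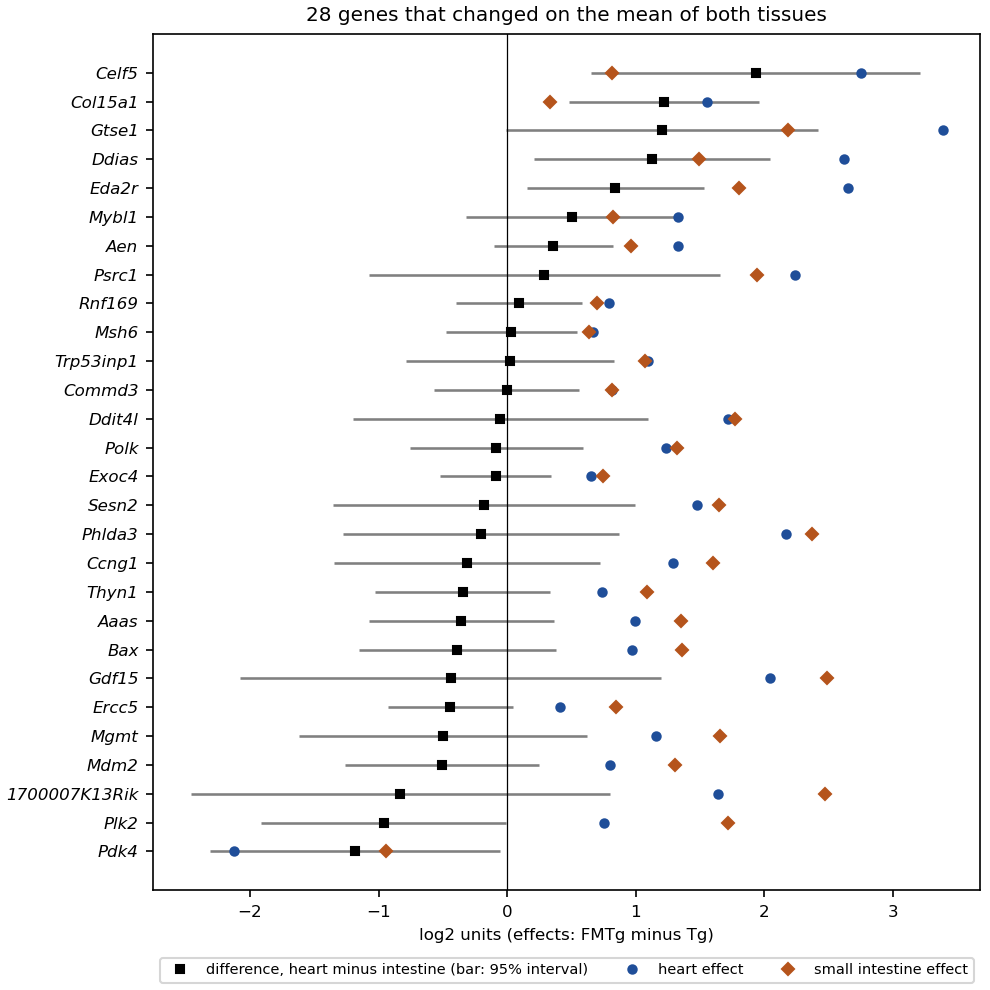
The 28 genes called on the mean of both tissues, ordered by difference. Squares give the difference (heart effect minus intestine effect, log2 units) with its 95% interval, circles the heart effect and diamonds the small intestine effect. Intervals of 6 genes exclude 0, and heart and intestine effects have the same sign in every gene shown.

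The p53 targets as a group were higher in FMTg mice in both tissues, by a similar median. All 74 listed targets passed the filter on low values. The lists were chosen with earlier results of these data known, so the counts below are not an independent test of the list. The heart effect had a median of 0.53 log2 units and the intestine effect one of 0.56, against -0.01 and -0.05 over all genes tested, and 55 of 74 were positive in each tissue. In the heart 25 of the 74 had every FMTg library above every Tg library (3.5% of all genes tested did so), in the small intestine 38 (1.71%) and in both 24 (0.397%). The median difference between the tissues was -0.14. It was 0.025 over the 6 mice with both tissues and -0.26 without 3 of the libraries that stood apart (FMTg heart replicates 2 and 4 and Tg intestine replicate 1, with FMTg heart replicate 5 kept). At an unadjusted p below 0.05, 3 targets had the higher effect in the heart (Eda2r, Pmaip1 and Ddias) and 5 the lower (Mdm4, Plk2, Ptp4a3, Inka2 and Sec14l5), 10.8% of the list against 3.15% of all genes.

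**Figure D3:**
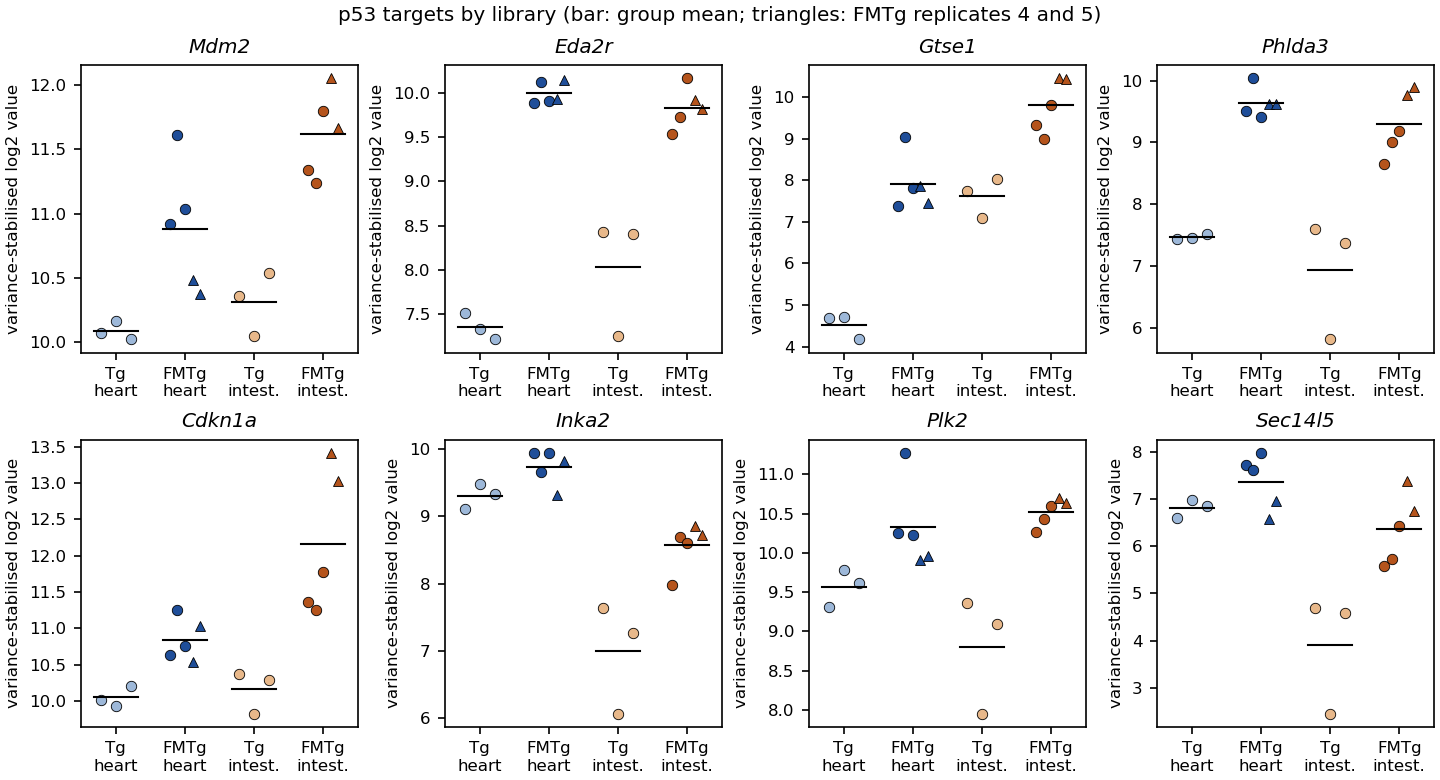
Deposited variance-stabilised log2 values of 8 p53 targets in the 16 libraries, with 1 point per library, a bar at the group mean and triangles for FMTg replicates 4 and 5. In the upper row FMTg libraries lie above Tg libraries in both tissues, and in the lower row the gap between Tg and FMTg libraries is wider in the small intestine. Tg intestine replicate 2 is the lowest point of the small intestine in all 8 panels.

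A binding element for p53 lies close to the start of some of these genes, so their promoters were searched. The p53 consensus is a pair of adjacent half-sites of 10 bases each and is its own reverse complement, so that both strands are covered at once. RefSeq promoter windows (GRCm38.p6) were matched to 71 of 86 genes searched (the 74 listed p53 targets and the 12 other genes called on the mean effect), and the 250 bases before the start were read. A match to at least 17 of 20 positions, with the core C and G of each half-site kept, was found for 8 genes, in 8 of their 91 windows (8.79%), against 374 of all 32851 windows (1.14%). The genes searched were listed as p53 targets or called in these data, so these shares are not a test of either set. The matches of 6 genes described below are shown in capitals with 20 bases to each side. A match describes the letters only and is neither a shown binding site nor a cause.
Ccng1: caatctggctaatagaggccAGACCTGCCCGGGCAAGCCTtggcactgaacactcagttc
Cdkn1a: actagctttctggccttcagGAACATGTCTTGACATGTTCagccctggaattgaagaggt
Zfp365: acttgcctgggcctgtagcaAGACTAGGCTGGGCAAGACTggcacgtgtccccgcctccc
Aen: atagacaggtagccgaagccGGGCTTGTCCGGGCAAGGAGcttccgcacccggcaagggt
Bbc3: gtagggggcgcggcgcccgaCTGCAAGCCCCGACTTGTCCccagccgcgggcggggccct
Sec14l5: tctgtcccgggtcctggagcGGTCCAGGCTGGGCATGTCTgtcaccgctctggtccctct
The stretch shown for Cdkn1a (chr17:29090908-29090967, plus strand) and that for Ccng1 (chr11:40755442-40755501, minus strand) hold matches to 19 of 20 positions in their capitals, which begin 51 and 195 bases before the start. The capitals in that for Zfp365 (chr10:67912686-67912745, minus strand) matched 18. Those in the stretches for Aen (chr7:78895917-78895976), Bbc3 (chr7:16309466-16309525) and Sec14l5 (chr16:5146951-5147010), all on the plus strand, matched 17, as did Sesn1 and Tigar. The difference between the tissues was positive for Aen and negative for the other 5 genes shown.

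The feedback regulators of p53 include Mdm2 itself. In the heart the normalised reads of Mdm2 (reads divided by the size factor of the library; chromosome 10, 117688875 to 117710758, minus strand) were 1069, 1140.0 and 1033 in the Tg mice and 1929.7, 3113, 2098, 1424 and 1318 in the FMTg mice. In the small intestine they were 1309, 1053 and 1476 and 2589.9, 2404, 3558, 4239 and 3238. In both tissues the lowest FMTg library exceeded the highest Tg library. These reads do not check the genotype, because the part of the gene that the FM allele loses is not given in the sources used here. Mdm2 rose on the mean of both tissues (log2 effect 1.05 ± 0.18 (SE), limma adjusted p 0.0284), and with the mouse as a block the adjusted p was 0.0858. The effect was 0.80 in the heart and 1.30 in the intestine, a difference of -0.50 with a 95% interval of -1.26 to 0.25 (limma p 0.173). Over the 6 mice that gave both tissues the difference was -0.041.

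Of 7 feedback genes, Mdm2, Ccng1 and Trp53inp1 rose on the mean of both tissues, and the median effect was 0.20 in heart and 0.88 in small intestine. Over the 6 mice with both tissues these medians were 0.41 and 0.84. The median difference of the list was -0.24 in the full fit and -0.041 over the 6 mice. Ccng1 encodes cyclin G1, which guides a phosphatase to Mdm2. It had log2 effects of 1.29 in the heart against 1.60 in the small intestine, and the interval of the difference was -1.35 to 0.72. Trp53inp1, which promotes the phosphorylation of p53, had 1.10 and 1.08, with an interval of -0.78 to 0.83. With the mouse as a block the adjusted p of their mean effects was 0.0557 and 0.0717. Mdm4, the partner of Mdm2 that restrains the activity of p53, had 2354, 2218 and 2166 normalised reads in the Tg heart and 2718, 3484, 2825, 1215 and 1405 in the FMTg heart. In the small intestine it had 3333, 3124 and 3533 in the Tg and 5787, 4527, 8066, 6597 and 6259 in the FMTg mice. Its groups overlapped in the heart and not in the small intestine, and the difference was -0.95 ± 0.41 (limma p 0.0380; -0.43 over the 6 mice). The p53 transcript itself, Trp53, had effects of 0.11 and 0.35, overlapping groups in both tissues, and an interval of the difference of -1.10 to 0.63. The difference of Trp53 was 0.10 over the 6 mice.

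Arrest genes divided between those with a numerically larger effect in heart and those with a larger one in small intestine. Gtse1, a microtubule-associated protein that restrains p53 in G2, had the largest effect of all 74 targets in the heart. Its normalised reads there (chromosome 15, 85859745 to 85876573, plus strand) were 19.7, 20.2 and 12.3 in the Tg mice and 161, 519, 218, 226 and 169 in the FMTg mice. The corresponding intestine values were 207, 131 and 254 in the Tg and 637, 507, 886, 1397 and 1391 in the FMTg mice. The groups did not overlap in either tissue, and the Tg heart was far below the Tg small intestine. The rise in the heart was 10.5-fold (log2 3.39 ± 0.40, limma adjusted p 0.00208), and the intestine effect was 4.55-fold (adjusted p 0.142). The difference was 1.20 ± 0.57 with an interval of -0.010 to 2.42 (limma p 0.0517), and 0.92 without FMTg heart replicate 2, its highest heart library.

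Cdkn1a encodes p21, the inhibitor of cyclin-dependent kinases through which p53 stops the cell cycle. Heart libraries had 1029, 966 and 1172 normalised reads in Tg and 1581, 2428, 1728, 1475 and 2092 in FMTg mice (chromosome 17, 29090976 to 29100727, plus strand). Intestine libraries had 1321, 900.0 and 1248 in Tg and 2621, 2437, 3484, 10964 and 8351 in FMTg mice. FMTg libraries were above Tg libraries in both tissues, and FMTg intestine replicates 4 and 5, which carry the Y-linked reads, were the highest by far. The effect was 1.73-fold in the heart against 4.01-fold in the small intestine, and neither passed (limma adjusted p 0.648 and 0.250). The difference was -1.21 ± 0.58, with an interval of -2.46 to 0.040 (limma p 0.0568), and it was -0.46 over the 6 mice that gave both tissues.

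Plk2, a kinase of the polo family, and Ptp4a3, a phosphatase, were the arrest genes with an unadjusted p below 0.05. Plk2 had 631, 875 and 774 normalised reads in the Tg heart and 1215, 2475, 1197, 957 and 991 in the FMTg heart. It had 652, 241 and 542 in the Tg and 1221, 1371, 1541, 1651 and 1586 in the FMTg small intestine. The groups did not overlap, Tg intestine replicate 2 was the lowest library of all, and FMTg heart replicate 2 the highest. The difference of Plk2 was -0.96 ± 0.45 (-1.92 to -0.0051; limma p 0.0489) and -0.53 without Tg intestine replicate 2. For Ptp4a3 the difference was -0.97 ± 0.37 (limma p 0.0202), with overlapping groups in both tissues. Of the 14 arrest genes, Gtse1, Psrc1, Plk2, Sesn2 and Ddit4l rose on the mean of both tissues. Psrc1, another microtubule-associated protein, had effects of 2.24 and 1.95 and an interval of the difference of -1.08 to 1.65. Sesn2 and Ddit4l, which restrain the growth kinase mTORC1, had intervals of -1.35 to 1.00 and -1.20 to 1.10. The remaining arrest genes include Gadd45a, Btg2 and Sesn1, with differences of -0.64, 0.14 and -0.15.

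Among 15 apoptosis genes the median effect was 0.92 in the heart and 0.97 in the intestine, and 8 were above Tg without overlap in both tissues (0.397% of all genes tested). Eda2r, a death receptor of the TNF receptor family, was called for the heart effect and for the intestine effect of the fit of both tissues. With the small intestine fitted alone limma called 0 genes (366 at an unadjusted p below 0.05). In the heart it had 175, 155 and 142 normalised reads in Tg and 941, 1107, 954, 970.0 and 1125 in FMTg mice (chromosome X, 97333840 to 97377216, minus strand). The small intestine had 337, 146 and 332 in Tg and 734, 839, 1143, 962 and 900.4 in FMTg mice. FMTg libraries of both tissues reached similar levels, while the Tg heart was lower than all Tg intestine libraries but replicate 2. The rise was 6.28-fold in the heart (log2 2.65 ± 0.23, limma adjusted p 0.000132) and 3.50-fold in the small intestine (1.81 ± 0.23, adjusted p 0.0171). The call in the small intestine was lost without each of FMTg intestine replicates 2 to 5. The difference of Eda2r was 0.84 ± 0.32 (0.16 to 1.53; limma p 0.0196) and 1.23 without Tg intestine replicate 2.

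Phlda3, which blocks the survival kinase Akt, had FMTg libraries above Tg libraries in both tissues. Its normalised reads in the heart were 167, 169 and 177 in Tg and 724, 1045, 672, 785 and 779 in FMTg mice (chromosome 1, 135766119 to 135769136, plus strand). Those of the small intestine were 187, 50.0 and 160.0 and 395, 510.3, 578, 866 and 945. The lowest FMTg library was above the highest Tg library by a wide margin in each tissue. The rise in the heart was 4.51-fold (limma adjusted p 0.0479, kept in 3 of 16 fits that left out 1 library), and the effect in the small intestine was 5.19-fold (adjusted p 0.0630). The interval of the difference was -1.27 to 0.87, and without Tg intestine replicate 2 the difference was 0.36.

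Aen, an exonuclease that takes part in apoptotic DNA fragmentation, had the narrowest interval of the called apoptosis genes. Heart libraries held 481, 499.7 and 527 normalised reads in Tg and 1236, 1128, 1204, 1284 and 1525 in FMTg mice (chromosome 7, 78895854 to 78911209, plus strand), and intestine libraries 470.2, 354 and 548 and 691, 903, 967, 941 and 958. The groups were apart in both tissues. Its rise in the heart was 2.51-fold (limma adjusted p 0.00208), its effect in the small intestine 1.95-fold (adjusted p 0.0785) and the difference 0.36 ± 0.22 (-0.10 to 0.82). Bax, which permeabilises the outer mitochondrial membrane, had effects of 0.97 and 1.36 with an interval of -1.15 to 0.38. For Bbc3, which encodes the BH3-only protein Puma, FMTg libraries were above Tg libraries in both tissues, and the difference was -0.81 ± 0.56 (-2.01 to 0.39). Pmaip1, which encodes the BH3-only protein Noxa, had 50.6, 16.2 and 8.51 normalised reads in the Tg heart and 84.7, 190.4, 74.8, 49.2 and 34.1 in the FMTg heart. Of these libraries, Tg replicate 1 and FMTg replicates 2 and 1, the highest of their groups, had the largest goblet cell shares among heart libraries. The small intestine had 480.2, 709 and 1016 in Tg and 845, 492, 843, 989 and 637 in FMTg mice. Its groups overlapped in both tissues, and the difference was 1.54 ± 0.70 (0.052 to 3.03; limma p 0.0435).

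Of 8 repair genes, Ddias, Polk and Ercc5 rose on the mean of both tissues, and the other 5 (Xpc, Ddb2, Polh, Rrm2b and Rev3l) had mean effects between -0.35 and -0.01. Ddias protects cells with DNA damage from apoptosis. Its normalised reads in the heart were 28.1, 25.3 and 17.0 in Tg and 195, 291, 178, 121 and 123 in FMTg mice (chromosome 7, 92857525 to 92874247, minus strand). The intestine libraries gave 149.5, 98.0 and 156 and 383, 255, 523, 474 and 343. As with Gtse1, the groups were apart in both tissues and the Tg heart was far below the Tg small intestine. The rise in the heart was 6.15-fold (limma adjusted p 0.00208) and the effect in the small intestine 2.82-fold (adjusted p 0.234). The difference was 1.12 ± 0.43 (0.21 to 2.04; limma p 0.0198), and within the 6 mice it was 1.49 (paired limma p 0.0288). Polk, a translesion DNA polymerase, had effects of 1.24 and 1.32, an interval of the difference of -0.76 to 0.59 and a limma adjusted p of 0.00223 on the mean. Ercc5, an endonuclease of nucleotide excision repair, had 0.41 and 0.85 and an interval of -0.93 to 0.045.

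No metabolic target was called in the heart, the small intestine or on the mean. Of 12, 0 were above Tg without overlap in heart (3.5% of all genes tested) and 2 in small intestine (Cpt1c and Ephx1; 1.71% of all genes). A higher value in FMTg intestine at an unadjusted limma p below 0.05 was found for 3 (229 of all 15363 genes tested). The smallest limma p of a difference was that of Lpin1, a phosphatidate phosphatase, with -1.14 ± 0.59 (-2.40 to 0.12; p 0.0719). Of 10 targets that are secreted or lie in the membrane, Gdf15, a circulating stress cytokine, rose on the mean of both tissues (log2 2.27 ± 0.38, limma adjusted p 0.0288; 0.0776 with the mouse as a block). Its normalised reads were 70.3, 105 and 62.4 in the Tg heart and 339, 904, 308, 291 and 162 in the FMTg heart. In the small intestine they were 45.5, 19.0 and 45.7 and 105, 189.9, 139, 549 and 338. The groups were apart in both tissues, and the interval of the difference, -2.08 to 1.20, was wide. Lif, a cytokine of the IL-6 family, had a difference of 0.35 ± 0.68, and 1.42 within the 6 mice (paired limma p 0.0236).

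In the list of 8 other responders, 7 were above Tg without overlap in the small intestine (1.71% of all genes tested) and 3 in the heart (3.5%). Their median effect was 0.49 in the heart against 1.21 in the small intestine, and 6 of 8 differences were negative. Over the 6 mice with both tissues the medians were 0.84 and 1.06. The median difference was then 0.026, with 4 of 8 positive. Inka2, an inhibitor of the kinase Pak4, had 545, 711 and 641 normalised reads in the Tg heart and 977, 804, 982, 634 and 897 in the FMTg heart (chromosome 3, 105704599 to 105720842, plus strand). Intestine libraries had 193, 61.0 and 149 and 247, 407, 385, 457 and 418. Its groups overlapped in the heart and were apart in the small intestine, where Tg replicate 2 was lowest. The difference was -1.15 ± 0.42 (-2.04 to -0.26; limma p 0.0148), -0.69 without Tg intestine replicate 2 and -0.89 within the 6 mice (paired limma p 0.152). Sec14l5, a member of the Sec14 lipid-binding family, showed the same arrangement. It had 90.9, 120.4 and 109 normalised reads in the Tg heart and 203, 188, 246, 89.4 and 118 in the FMTg heart. It had 20.0, 1.00 and 18.1 in the Tg and 41.6, 46.6, 79.4, 159 and 101 in the FMTg small intestine. Its difference was -1.90 ± 0.74 (-3.47 to -0.33; limma p 0.0213), -1.17 without Tg intestine replicate 2, which held 1.00 normalised read, and -1.04 within the 6 mice. Zfp365, a zinc finger protein with a role in genome stability, and Ano3, an anoctamin, had non-overlapping groups in both tissues and intervals of the difference of -2.37 to 1.19 and -2.24 to 2.27. Ano3 overlaps Muc15 on the other strand, and strand-specific counting is not stated.

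Outside the p53 lists, the largest positive differences by p were in genes of macrophages and of antigen presentation. The 8 genes with the smallest p in that direction were Cybb, Cd86, Gpr34, Il10ra, Csf1r, Cd83, Ly86 and Clec12a. None passed the correction. Cybb encodes the catalytic subunit of the phagocyte NADPH oxidase. Its normalised reads in the heart were 296, 262 and 194 in Tg and 441, 849, 564, 760.3 and 630.2 in FMTg mice (chromosome X, 9435252 to 9487771, minus strand). The corresponding intestine values were 306, 533 and 540.0 and 373, 314, 379.6, 378 and 291. FMTg libraries were all above Tg in the heart, and the groups overlapped in the small intestine. The effect was 1.34 ± 0.23 in the heart (limma adjusted p 0.0780) and -0.36 ± 0.23 in the small intestine, and the difference was 1.70 ± 0.33 (0.99 to 2.40; limma p 0.00013, the smallest of these genes).

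Cd86, a costimulatory ligand on antigen-presenting cells, went opposite ways in the tissues. Heart libraries held 41.2, 38.4 and 56.7 normalised reads in Tg and 88.6, 153, 80.0, 63.6 and 66.9 in FMTg mice (chromosome 16, 36603869 to 36666081, minus strand). Intestine libraries held 45.5, 68.0 and 61.0 in Tg and 29.0, 25.6, 25.6, 21.1 and 27.6 in FMTg mice. Every FMTg library was above every Tg library in the heart, and every one was below in the small intestine (1.17% of all genes tested lay below without overlap there). The effects were 0.85 ± 0.27 and -1.01 ± 0.27, and neither passed the correction. The difference was 1.86 ± 0.38 (1.04 to 2.68; limma p 0.000233; paired limma p 0.00171 within the 6 mice). Csf1r, the receptor on which macrophages depend for survival, had 1006, 897 and 1029.8 normalised reads in the Tg heart and 1499, 3710.2, 1520.4, 2312 and 1893 in the FMTg heart. It had 915, 1182 and 1242 in the Tg and 884, 705, 869, 971 and 770.1 in the FMTg small intestine. Its groups were apart in the heart, with FMTg replicate 2 highest, and overlapped in the small intestine. The difference was 1.47 ± 0.34 (0.75 to 2.20; limma p 0.000609), and 1.26 without FMTg heart replicate 2. Gpr34, a lysophosphatidylserine receptor of phagocytes, had a difference of 1.80 ± 0.39 and lies opposite Cask on the other strand. The inhibitory cytokine receptor chain Il10ra, the maturation marker Cd83, Ly86 and the lectin Clec12a had differences of 1.59, 1.70, 1.81 and 2.24.

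The macrophage marker list moved as its single genes did. All 11 markers had a positive difference, with a median of 1.18 against 0.02 over all genes, and 8 had an unadjusted p below 0.05 (3.15% of all genes). Their median effect was 1.07 in heart and -0.054 in small intestine. In the heart 4 of 11 (Adgre1, Csf1r, C1qa and Lyz2) were above Tg without overlap (3.5% of all genes tested), against 0 in the small intestine (1.71%). Members of a list were measured in the same libraries, so such counts are not independent. The summed share of reads ran from 0.0441% to 0.0677% in the Tg heart and from 0.0745% to 0.232% in the FMTg heart, with FMTg replicate 2 highest. In the small intestine it ran from 0.0328% to 0.0392% in Tg and from 0.0229% to 0.0363% in FMTg mice. No defining marker was at 0. Adgre1, the adhesion receptor F4/80, had 349.6, 261 and 312 normalised reads in the Tg heart and 535, 1201, 616, 691 and 553 in the FMTg heart, and a difference of 1.21 ± 0.36 (limma p 0.00479). Lyz2, the lysozyme of myeloid cells, had 1.68 ± 0.50 (limma p 0.00439). Without FMTg heart replicate 2 the median difference was 1.00 with 4 markers below 0.05. Without FMTg heart replicates 2 and 4 and Tg intestine replicate 1 it was 0.88, with 9 of 11 positive and 3 below 0.05. Within the 6 mice it was 1.05, with 7 below 0.05 (2.62% of all genes tested).

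Genes of MHC class II, which present peptides to helper T cells, had a median effect of 0.96 in the heart and -0.25 in the intestine. All 7 differences were positive (median 1.35), and 4 had an unadjusted p below 0.05 (3.15% of all genes tested): H2-Ab1, H2-Eb1, H2-DMa and Cd74. H2-Ab1, a chain of the class II dimer, had 482, 354 and 301 normalised reads in the Tg heart and 1039, 907, 839.7, 1221 and 1605 in the FMTg heart. It had 3244, 4398 and 2442 in the Tg and 4304, 2765, 998, 9469 and 3599 in the FMTg small intestine. The groups were apart in the heart, whereas in the small intestine the FMTg libraries spread on both sides of the Tg libraries. Its difference was 1.51 ± 0.70 (0.011 to 3.02; limma p 0.0486). Within the 6 mice the median difference of the list was 1.72 and all 7 genes had a paired limma p below 0.05, unadjusted (2.62% of all genes tested). Those mice include FMTg intestine replicate 3, the intestine library with the lowest share of reads in these genes (0.0421%). They leave out FMTg intestine replicate 4, the one with the highest (0.269%). Without FMTg heart replicates 2 and 4 and Tg intestine replicate 1 the median was 1.40, and 1 gene was below 0.05, as was 1 after the median shift.

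B and plasma cell markers had the larger part of their difference in the small intestine. The median effect of 10 markers was 0.28 in heart and -0.97 in small intestine, and all 10 differences were positive (median 1.40). Of these, 3 had an unadjusted p below 0.05 (3.15% of all genes tested), 1 after the median shift and 0 within the 6 mice. The FMTg small intestine lay below Tg without overlap for Pax5, Cd22 and Blk (1.17% of all genes tested). The summed share of reads did not follow these genes: it ran from 0.0607% to 0.134% in the Tg and from 0.0737% to 0.158% in the FMTg small intestine, since Jchain and Mzb1, markers of plasma cells, had intestine effects of 0.12 and -0.038. In the heart the share was at most 0.0122%. It was highest in FMTg heart replicates 2 and 1 and Tg heart replicate 1, the heart libraries with the largest goblet cell shares. The part of a change in the number of immune cells in these results was not tested.

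**Figure D4:**
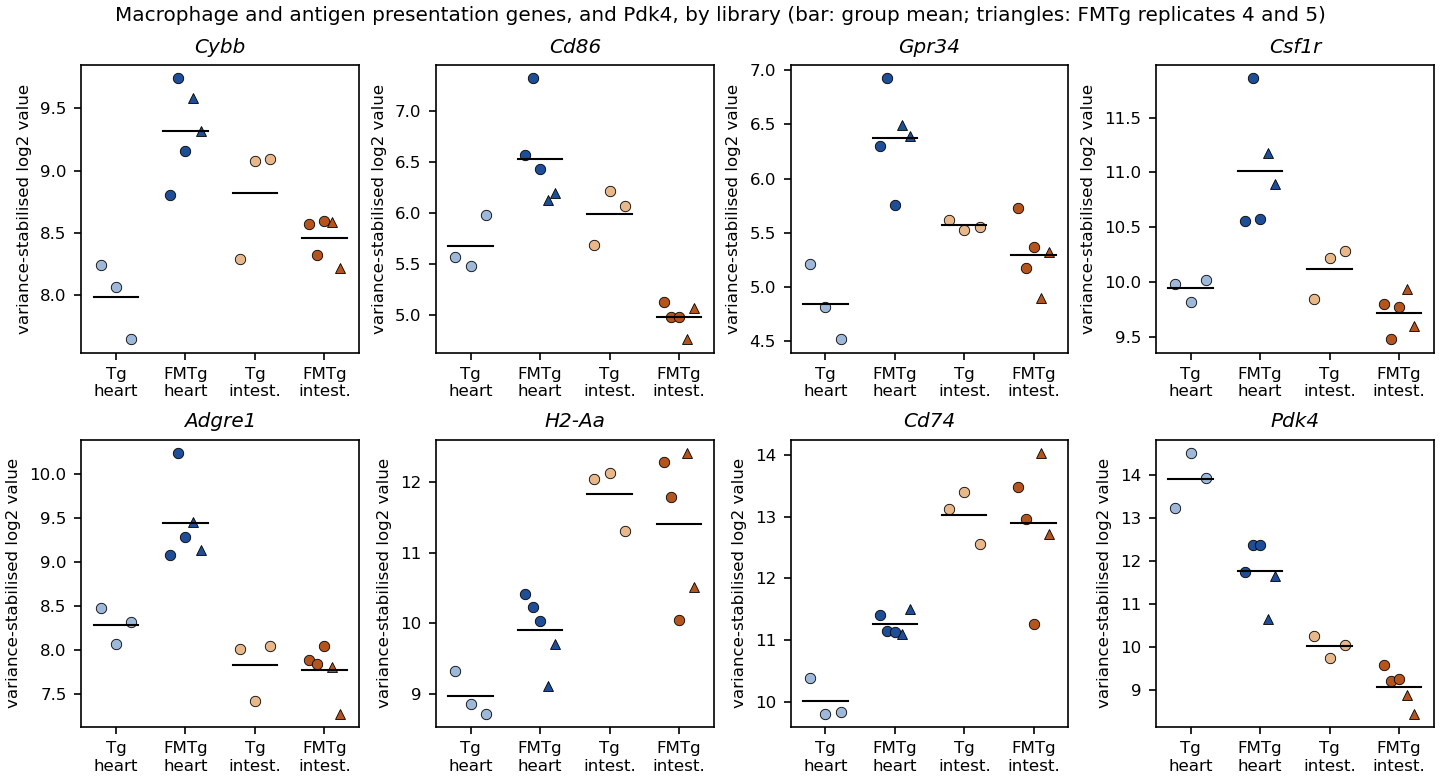
Deposited variance-stabilised log2 values of 5 macrophage genes, 2 genes of antigen presentation by MHC class II (H2-Aa and Cd74) and Pdk4 in the 16 libraries, with 1 point per library, a bar at the group mean and triangles for FMTg replicates 4 and 5. FMTg heart libraries lie above Tg heart libraries for Cybb, Cd86, Gpr34, Csf1r, Adgre1 and Cd74, FMTg intestine libraries lie below for Cd86, and Pdk4 is lower in FMTg libraries of both tissues.

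Connective tissue and protein-folding genes also had higher effects in the heart. All 10 fibroblast and collagen genes had a positive difference (median 0.87), but the median was 0.53 without FMTg heart replicate 2, the library with 1.44% of its reads in them. Col6a1, a chain of the microfibrillar collagen VI, was the member with a limma p below 0.05 (0.79 ± 0.36, p 0.0477), and 0 members had one without FMTg heart replicate 2. Col15a1, a basement membrane collagen that is not on the list, rose in the heart. It had 760.2, 885 and 444 normalised reads in the Tg heart and 2105, 2810.0, 1824, 1673 and 1668 in the FMTg heart (chromosome 4, 47208161 to 47313167, plus strand). In the small intestine it had 524, 343 and 466 in Tg and 474, 466, 724, 666 and 488 in FMTg mice. The groups were apart in the heart and overlapped in the small intestine. The heart effect was 1.55 ± 0.24 (limma adjusted p 0.0381, kept in 4 of 16 fits that left out 1 library) and the difference 1.22 ± 0.35 (0.48 to 1.96; limma p 0.00322; 1.09 without FMTg heart replicate 2).

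The endoplasmic reticulum chaperone genes, which fold secreted proteins, had differences between -0.42 and 0.81. Of 12, 11 were positive, the median was 0.52 and 5 had an unadjusted p below 0.05 (Hspa5, Hsp90b1, Pdia4, Pdia6 and Xbp1; 3.15% of all genes). After each library was shifted to the median of its tissue, 2 had one. In the heart 8 of 12 were above Tg without overlap (3.5% of all genes), in the small intestine 2 (1.71%) and in both 1 (Calr; 0.397%). Hspa5, the chaperone BiP, had 6654, 6851 and 7054 normalised reads in the Tg heart and 13219.5, 7612, 10851, 14172 and 10207 in the FMTg heart. The small intestine had 8675, 9048 and 9413 in Tg and 10113, 8503, 10323, 7969 and 8197 in FMTg mice. The groups were apart in the heart by a narrow margin at FMTg replicate 2 and overlapped in the small intestine, and the difference was 0.69 ± 0.26 (0.14 to 1.24; limma p 0.0180). The median of the list was 0.55 without FMTg heart replicate 2 and 0.50 within the 6 mice.

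**Figure D5:**
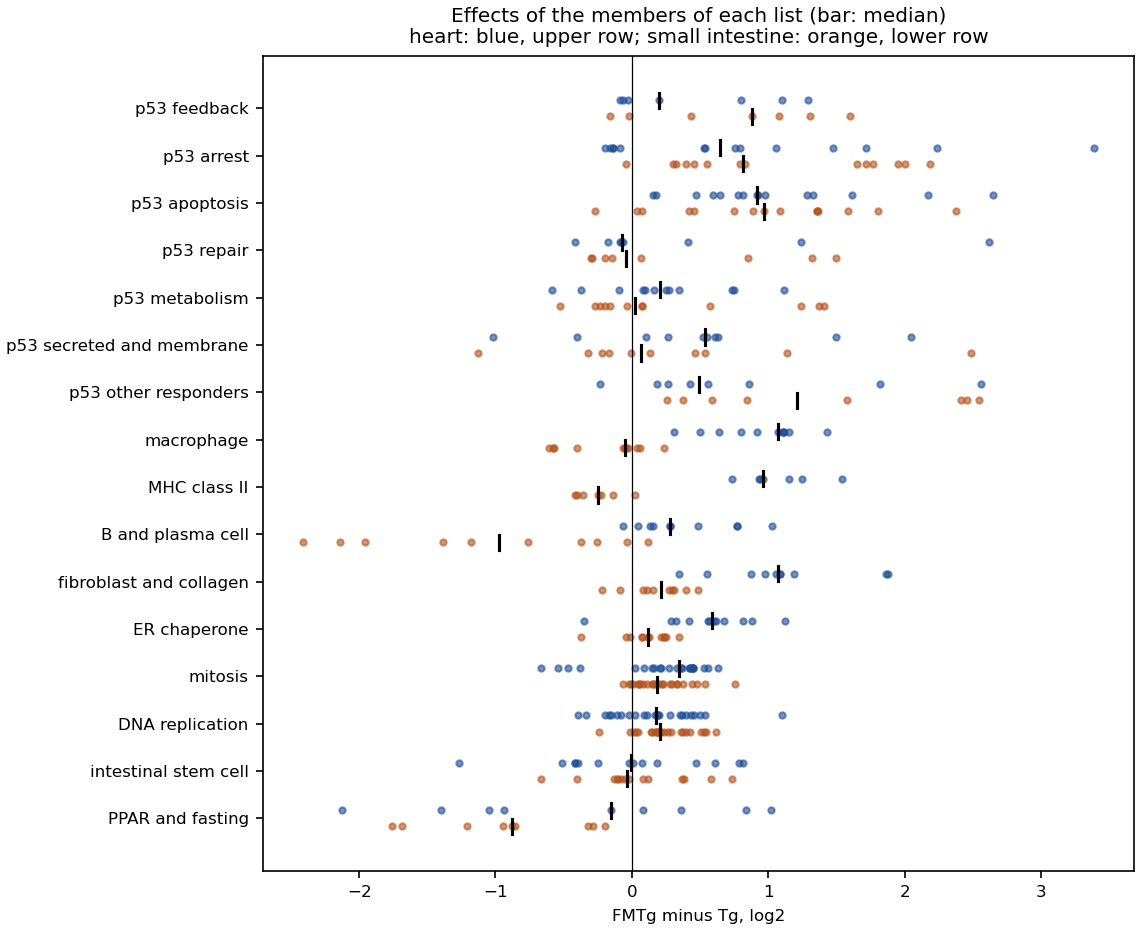
Effects of the members of 16 gene lists (FMTg minus Tg, log2), with 1 point per gene, heart in blue on the upper line and small intestine in orange on the lower line, and bars at the medians. Among the p53 lists, medians of the arrest, apoptosis and other responder lists are at least 0.49 in both tissues. The secreted and membrane list has 0.54 in the heart and 0.063 in the intestine. Without FMTg heart replicate 2 its heart median is 0.27, and its median difference goes from 0.23 to -0.022. Macrophage genes have 1.07 in the heart and -0.054 in the intestine.

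Celf5 rose in the heart from near absence. It encodes an RNA-binding regulator of splicing, is known from nervous tissue and is on no list. Heart libraries held 1.87, 3.03 and 2.84 normalised reads in Tg and 26.1, 108, 26.1, 39.4 and 56.8 in FMTg mice (chromosome 10, 81459227 to 81482709, minus strand). Intestine libraries held 33.9, 54.0 and 45.7 in Tg and 57.9, 78.5, 53.8, 168 and 86.6 in FMTg mice. The FMTg heart came near the level of the small intestine, and the intestine groups overlapped by a narrow margin. The heart effect was 2.75 ± 0.42 (limma adjusted p 0.0355, kept in 8 of 16 fits that left out 1 library), and the difference was 1.94 ± 0.60 (0.65 to 3.22; limma p 0.00579).

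The metabolic switch gene Pdk4 fell on the mean of both tissues, with the larger effect in the heart. Pdk4 encodes the kinase that shuts down pyruvate dehydrogenase when fatty acids are burned, and it is induced by fasting and glucocorticoids. Its normalised reads in the heart were 9549, 23364 and 15599 in Tg and 3402, 5286, 5300.0, 1618 and 3215 in FMTg mice (chromosome 6, 5483351 to 5496309, minus strand). Those of the small intestine were 1230.1, 854 and 1061 and 759, 591, 606, 469.6 and 346. FMTg libraries lay below all Tg libraries in both tissues (3.5% of all genes tested did so in heart and 1.17% in small intestine). On the mean of both tissues the log2 effect was -1.54 ± 0.26 (limma adjusted p 0.0315; 0.0717 with the mouse as a block). The effect was 4.37-fold lower in the heart (adjusted p 0.0780) and 1.92-fold lower in the small intestine. The difference was -1.18 ± 0.53 (-2.31 to -0.058; limma p 0.0405; -1.05 within the 6 mice). Acot2, a mitochondrial thioesterase of the same list of PPAR and fasting genes, was also below Tg without overlap in both tissues, by -0.94 and -0.86, with an interval of the difference of -0.90 to 0.74. The 9 tested genes of that list had median effects of -0.15 in the heart against -0.88 in the small intestine. Over the 6 mice the order was the opposite, with medians of -1.39 and -0.19. Food intake of the mice is not given in the sources used here.

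The 8 genes with the smallest p for a lower effect in the heart were Tcf23, Lrrc10b, Csrnp2, Cpne5, Bcl9, Psmd11, Mbd1 and Ubqln2, and none passed the correction. Tcf23 is a basic helix-loop-helix factor. It had 229.7, 201 and 256 normalised reads in the Tg heart and 67.3, 72.0, 91.3, 81.8 and 98.5 in the FMTg heart (chromosome 5, 30968662 to 30977018, plus strand). The small intestine had 54.0, 52.0 and 89.5 in Tg and 68.3, 65.7, 173, 64.3 and 78.3 in FMTg mice. The FMTg heart lay below the Tg heart in every library, and the intestine groups overlapped. The difference was -1.78 ± 0.42 (-2.68 to -0.89; limma p 0.000729; paired limma p 0.00124 within the 6 mice). Lrrc10b had 41.2, 43.5 and 21.7 normalised reads in the Tg heart and 6.33, 2.32, 7.82, 0 and 0 in the FMTg heart, so its difference of -3.18 ± 0.78 rests on few reads.

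Csrnp2, a nuclear protein with cysteine and serine rich domains, was the reverse case, with most of its difference in the small intestine. Heart libraries held 143, 137 and 114 normalised reads in Tg and 154, 111, 137, 75.0 and 69.5 in FMTg mice (chromosome 15, 100479570 to 100495488, minus strand). Intestine libraries held 146, 79.0 and 132 in Tg and 293, 256, 351, 914 and 688 in FMTg mice. The groups overlapped in the heart, and all FMTg libraries were above Tg in the small intestine, replicates 4 and 5 by the most. The difference was -2.19 ± 0.56 (-3.39 to -0.99; limma p 0.00145) and -1.30 within the 6 mice, which leave out FMTg replicates 4 and 5. Cpne5, a copine, had -2.27 ± 0.61. Bcl9, a coactivator of beta-catenin, and Ubqln2, a ubiquilin, had -0.93 and -0.82. The proteasome subunit gene Psmd11 had -0.65, and Mbd1, which encodes a protein that binds methylated DNA, had -1.001.

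For proliferation genes no difference between the responses of the tissues was detected, although their levels differed widely. Mitosis genes took 0.00596% to 0.0116% of the reads in the Tg heart and 0.0611% to 0.0885% in the Tg small intestine. Their median effect was 0.34 in the heart and 0.18 in the intestine. The 24 differences lay between -0.69 and 0.51 with a median of 0.037, and 0 had an unadjusted p below 0.05. That median turned to -0.24 without FMTg heart replicate 2, the highest heart library for Kif23 among others, and was 0.63 over the 6 mice. At their median SE of 0.66, a difference of the size seen in Ddias was not detectable. For 24 DNA replication genes the medians were 0.18 and 0.21, and 0 differences had an unadjusted p below 0.05. Intestinal stem cell markers had median effects of -0.0061 and -0.033. Lgr5, the receptor that marks crypt base stem cells, had an intestine effect of -0.13 ± 0.49, and Olfm4, another marker of these cells, -0.10 ± 1.04. Axin2, a target and brake of Wnt signalling, was the stem cell marker with the smallest p of the difference (-0.80 ± 0.34, limma p 0.0331).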

How the data were processed

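Members and gene lists were chosen with earlier results of these data known. Per the submitters' processing notes, STAR 2.6.0b, DESeq2 and the build GRCm38 were used. The counter, annotation and strand setting are not given in the sources used here. The table that the authors deposited holds variance-stabilised log2 values of 18024 genes in 40 libraries. A gene without reads sits at 1.65. Inverting the transformation gave whole reads for 100% of the values (tolerance 0.01, largest distance 1.11e-07), from which depth and normalised reads were computed. Intervals rest on the spread between libraries of a group, pooled over the 4 groups, without a mouse block although 6 mice gave both tissues. With the mouse as a random block the median SE of the difference was 0.376, against 0.416 without it. That of the mean effect was 0.228, against 0.208. A fold is 2 to the power of the log2 effect, and it understates changes of genes with few reads.

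The 16 libraries were fitted with limma 3.58.1 in R 4.3.3 (4 group means, moderated with a trend, two-sided). Genes with a mean at least 1 above the lowest value in both tissues were tested (15363 genes), with Benjamini-Hochberg adjustment and a threshold of 0.05. Further contrasts of the same fit were the heart effect, the intestine effect and their mean. Named genes were Mdm2 and Trp53, the 8 with the smallest p in each direction of the difference (none was called, and predicted gene models were left out), the 10 with the smallest p of the mean effect, and up to 4 members of each list described by each p, of which 1 is not reported here. Other named genes were chosen after their values were seen: those called for the mean effect, the members counted in a list, and Celf5 and Col15a1.

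Mice are paired across tissues by the animal number in the sample names. The deviations of the 6 same-mouse pairs correlated by -0.094 to 0.283 and those of 28 other pairs by -0.308 to 0.293, and the correlation used for the random block was 0.222 (statmod 1.5.0). Alternatives were other filters, mouse blocks, libraries left out, all 40 libraries, other variance models, voom and a median shift. The fit with FMTg heart replicates 2 and 4 and Tg intestine replicate 1 left out was added after seeing the data. Positions are those of GENCODE M21 (GRCm38), in which 17079 of 18024 gene IDs were found, and promoters are from RefSeq. Figures used matplotlib 3.10.9. The procedure was tested on simulated reads.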

Additional observations from a re-analysis of the deposited data

Results flagged for a closer look

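In each FMTg group of 5 libraries, each of the 101 named genes was checked for 1 library far from the others (Dixon's gap over range above 0.71). Of 202 such checks, 21 found one, and chance gives about 1 in 20. In 11 the library was FMTg heart replicate 2, the one with the highest share of fibroblast, macrophage and erythroid reads, and it was the highest each time. Its variance-stabilised log2 values were 8.35 for Ano3, 8.89 for Bax, 12.23 for Col6a1, 8.98 for Cpt1c, 14.11 for Fbn1, 9.04 for Gtse1, 6.96 for Kif23, 13.36 for Lyz2, 11.28 for Plk2, 13.84 for Thbs1 and 12.28 for Trp53inp1. FMTg heart replicate 4 was the lowest for Susd6 (11.04). FMTg intestine replicate 1 was the lowest for Aen (9.44), Cpt1c (6.63), Inka2 (7.98) and Polk (9.26), and replicate 2 for Kif23 (8.46). FMTg intestine replicate 3 was the highest for Exoc4 (11.51), Fdxr (8.32) and Tcf23 (7.49), and replicate 4 for Xpc (8.94).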

How the results depend on the processing

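The count of genes called for the difference was 0 in all alternatives but library weights, which called 9. The estimation of those weights did not converge, and 1 library (Tg intestine replicate 3) took a weight of 224, so its values are given for completeness only. Leaving out 1 library at a time gave 4 to 8 called genes for the heart effect (7 in the full fit), 0 to 8 for the intestine effect (1) and 6 to 36 for the mean effect (28). The intestine count was 8 without FMTg heart replicate 2, 3 without FMTg intestine replicate 1, 2 without Tg intestine replicate 1 and 0 without each of FMTg intestine replicates 2 to 5. For the heart, the count was 23 with all 40 libraries, 69 with library weights, 2 with voom and 3 with the heart fitted alone. For the small intestine it was 0 without FMTg replicates 4 and 5, 2 without FMTg heart replicates 2 and 4 and Tg intestine replicate 1, 28 with all 40 libraries, 455 with library weights, 2 with the median shift and 0 with the small intestine fitted alone. For the mean effect it was 13 with the mouse as a random block (a replicate block), 14 without those 3 libraries, 63 with all 40 libraries, 178 with library weights and 13 with voom. Neither fit with the mouse as a block called a difference. The cause was not tested for any of these counts. The sign of a difference turned for 26 of 101 named genes in at least 1 alternative other than single libraries left out. The full fit called 0 differences of any gene, so no called difference could turn. Within the 6 mice (the pairing by mouse) and, by construction, without FMTg replicates 4 and 5, the differences became Cyp4a10 -1.54, Plin2 -0.035, Cop1 -0.018, Aaas 0.0022, Bub1b 0.0026, Notch1 0.017, Ddb2 0.027, Exoc4 0.034, Bax 0.038, Polk 0.049, Trp53 0.10, Zfp365 0.13, Cenpa 0.13, Phlda3 0.16, Ddit4l 0.22, Sesn2 0.60 and Gdf15 0.61. With library weights they were Plin2 -0.16, Exoc4 0.022, Xpc 0.032, Siva1 0.061, Trp53 0.091, Ddb2 0.10, Polk 0.27, Sesn2 0.29, Ddit4 0.38, Gdf15 0.43, Phlda3 0.49 and Ddit4l 0.87, after the median shift Ano3 -0.090, Rap2b -0.087, Trp53inp1 -0.080, Epha2 -0.028 and Rnf169 -0.011, with voom Ano3 -0.40 and Ddit4l 0.017, and without the 3 libraries named above Ano3 -0.83, Rap2b -0.29, Trp53inp1 -0.28, Rnf169 -0.082, Psrc1 -0.059, Cenpa 0.020 and Ddb2 0.041. Phlda3 and Sesn2 kept their sign without those 3 libraries, at -0.67 and -0.46. Leaving out single libraries turned 13 differences; the ranges of these, and of Cenpa and Ddb2, were Ano3 -0.58 to 1.15, Ccng1 -0.57 to 0.044, Cenpa -0.76 to -0.21, Ddb2 -0.24 to -0.017, Ddit4 -0.78 to 0.0023, Ddit4l -0.32 to 0.40, Epha2 -0.12 to 0.32, Exoc4 -0.19 to 0.022, Phlda3 -0.54 to 0.36, Polk -0.22 to 0.14, Psrc1 -0.094 to 0.62, Rap2b -0.20 to 0.16, Rnf169 -0.013 to 0.23, Sesn2 -0.42 to 0.042 and Trp53inp1 -0.21 to 0.26. Of the 28 genes called on the mean, 20 lost the call in at least 1 alternative other than single libraries left out. With 3 Tg libraries a tissue, the median 95% interval of a difference spanned 0.889 log2 units to either side.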

Other observations

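Genes that passed the filter on low values in only 1 tissue were not among the 15363 and were compared in that tissue. With them included, limma called 0 of 16510 genes for the difference between the tissues, with 505 at an unadjusted p below 0.05. Of 406 genes that passed in the heart only, 0 were called by limma for the heart effect. An unadjusted p below 0.05 was found for 29 (7.73% of all 16510 genes). Of 741 that passed in the small intestine only, 0 were called for the intestine effect. There 35 had an unadjusted p below 0.05 (2.51% of all 16510 genes). The smallest p in the heart was that of Matn1, a cartilage matrix protein, with a log2 effect of 1.70 ± 0.45 (SE), and Myh1, a myosin heavy chain of fast skeletal muscle, had 2.30 ± 0.78. Ngp, a granule protein of immature neutrophils, had -2.08 ± 0.65. In the small intestine Oas1f, of the interferon-induced oligoadenylate synthetase family, had 2.31 ± 0.48 and Casp14, the caspase of cornifying epithelia, had 2.03 ± 0.53.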
